A study of Mus musculus with 435 samples.

Results

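The genes described here mostly encode enzymes that conjugate, hydrolyse, oxidise or reduce drugs, dietary compounds and products of lipid metabolism in the liver. Adh6-ps1, which is tested and counted under Adh, is by its symbol a pseudogene. All genes were chosen by symbol in the gene table of the array: names starting with Gst, Mgst, Ugt, Sult, Ces, Ephx, Aldh, Adh or Fmo followed by a digit, Cbr, Nqo or Aox, without Gstm3 and Gsta3. A probe had to be measured on at least 100 arrays, which 74 of 87 matching probes were. They stand for 72 of 11633 named genes measured that often, on 14144 probes. Just inside that limit lay Mgst1 with 116 arrays, and just outside it Aox4 with 96. The rule reads names and array counts and no difference between groups, but it was set with earlier results of these data known.

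The arrays hold liver RNA of mice of strain C57 or A/J, on either of 2 diets, high-fat or low-fat, taken at week 0, week 1 or weeks 3 to 11. The 435 arrays form 44 groups of 8 to 10 by strain, diet and week, in 4 levels of about equal size: C57 on the high-fat diet, C57 on the low-fat diet, A/J on the high-fat diet and A/J on the low-fat diet. The labels name no substrain, age, sex or diet composition and do not say which arrays share a mouse. Each array compared liver RNA, labelled with Cy5, with a pool of RNA from 10 C57 tissues, labelled with Cy3, and the pool itself contains liver and kidney. A value of 0 on the log2 scale used below is the median, on its array, of the 7643 probes tested, not of all probes measured. A positive value means that liver stood higher against the pool than that median. It is not an abundance, and fewer cells of a type cannot be told apart from less RNA per cell.

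Glutathione S-transferases (Gst, Mgst), UDP-glucuronosyltransferases (Ugt) and sulfotransferases (Sult) attach glutathione, glucuronic acid or sulfate to reactive or lipophilic molecules. Carboxylesterases (Ces) and epoxide hydrolases (Ephx) split esters and epoxides. Alcohol and aldehyde dehydrogenases (Adh, Aldh), carbonyl and quinone reductases (Cbr, Nqo), flavin monooxygenases (Fmo) and aldehyde oxidases (Aox) change the oxidation state of alcohols, carbonyls, quinones, amines and heterocycles. Many of these genes are abundant in hepatocytes, and several are targets of receptors and factors that sense foreign compounds.

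Comparisons used 9 weeks, 1 to 11 without week 8, in which 28 of the arrays correlated below 0.15 with the median array. With 4 more such arrays left out and 2 pairs of identical A/J high-fat arrays counted once each, 350 arrays remained. They carried between 2183 and 14920 measured probes, with a median of 11358. The week was the unit of replication: 36 group means were fitted with limma on strain and diet (4 levels) plus week as a factor, and p-values were adjusted over all 7643 probes tested by Benjamini-Hochberg, with a threshold of 0.05. Hepatocyte markers were above 0 in 8 of 8 cases, with a median of 1.16, and skeletal muscle markers had a median of -1.83. Both measured testis markers were also above 0.

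Of the 74 probes, 45 for 44 genes were measured often enough to be tested, on at least 70% of arrays and at least 3 of each group. The other 29 include every Ephx, Mgst, Nqo and Aox probe, and also Adh1, Adh4 and Adh7. The filter reads how often a spot was measured, so the tested probes do not stand for all members.

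The promoters of Ces1g and Ugt1a9 are shown because both genes passed the strain comparison below, and those of Ces1c and Ces1e because they belong to the same esterase cluster. The windows are RefSeq sequences of GRCm38.p6, from 250 bases before to 50 after the start, each 5′ to 3′ on the strand of its gene. Ces1c (chr8:93131234-93131533), Ces1e (chr8:93229570-93229869) and Ces1g (chr8:93337160-93337459) lie on the minus strand and Ugt1a9 (chr1:88070529-88070828) on the plus strand. Capitals mark the letters TATAAA or GTTAAT, searched on both strands, which read TTTATA in Ces1g and ATTAAC in Ugt1a9.
Ces1c: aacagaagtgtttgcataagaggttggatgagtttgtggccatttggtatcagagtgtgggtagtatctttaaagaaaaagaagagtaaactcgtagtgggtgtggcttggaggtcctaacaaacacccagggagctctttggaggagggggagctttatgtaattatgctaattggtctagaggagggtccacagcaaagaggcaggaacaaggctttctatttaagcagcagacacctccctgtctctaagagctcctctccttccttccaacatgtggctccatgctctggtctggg
Ces1e: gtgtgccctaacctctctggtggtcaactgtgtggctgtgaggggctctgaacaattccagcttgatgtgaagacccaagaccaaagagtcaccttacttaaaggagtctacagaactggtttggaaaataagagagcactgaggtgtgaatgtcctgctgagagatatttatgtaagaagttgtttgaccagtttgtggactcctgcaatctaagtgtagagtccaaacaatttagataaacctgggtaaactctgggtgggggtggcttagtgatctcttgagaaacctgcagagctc
Ces1g: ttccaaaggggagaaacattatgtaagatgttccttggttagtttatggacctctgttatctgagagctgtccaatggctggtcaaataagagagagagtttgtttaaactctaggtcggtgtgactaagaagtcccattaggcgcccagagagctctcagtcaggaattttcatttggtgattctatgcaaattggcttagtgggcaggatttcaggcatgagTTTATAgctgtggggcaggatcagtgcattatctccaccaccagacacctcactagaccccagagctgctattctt
Ugt1a9: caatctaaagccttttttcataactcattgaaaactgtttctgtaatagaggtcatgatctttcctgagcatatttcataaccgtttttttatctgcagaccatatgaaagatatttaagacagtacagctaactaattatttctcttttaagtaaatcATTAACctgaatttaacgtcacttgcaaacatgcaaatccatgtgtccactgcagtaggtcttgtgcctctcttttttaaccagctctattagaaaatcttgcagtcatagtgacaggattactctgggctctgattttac
Aligned over their length with gaps allowed, the Ces1c and Ces1g windows were 55.2% identical, Ces1e and Ces1g 50.4%, and Ces1c and Ces1e 47.1%. The identity of unrelated windows was not computed, so these shares have no baseline. The table holds windows for 61 of the 72 genes, 74 windows in all, and none for Ces1f or Gsta4, which also passed between strains. TATAAA occurred in 17 of those 74 windows and in 13.6% of all 32851 windows, and GTTAAT in 8.11% and 7.10%. The core letters of the antioxidant response element, TGACNNNGC, occurred in 8.11% against 12.4%, and those of the dioxin response element, GCGTG, in 20 of 74 against 32.4%. These are matches of letters, not sites.

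Across the 4 strain and diet levels, 23 of the 45 tested probes (51.1%) had a mean above 0, with a median of 0.015, against 40.4% of all tested probes, with a median of -0.099. By family the count above 0 was 9 of 13 for Gst, 3 of 4 for Ces, 2 of 3 for Ugt and for Fmo, 4 of 10 for Aldh, 1 of 2 for Adh, 1 of 3 for Cbr and 1 of 7 for Sult. The highest ratios over the pool belonged to Aldh1a7, a close relative of the retinaldehyde dehydrogenase Aldh1a1, with a mean of 0.68, to the mitochondrial transferase Gstk1 with 0.58, to Gstm1 with 0.57 and to Ces1e with 0.55. The lowest were Gstm2 at -1.19, Gstm5 at -1.17 and Cbr3 at -0.92. Mu-class transferases stood at both ends.

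**Figure D1:**
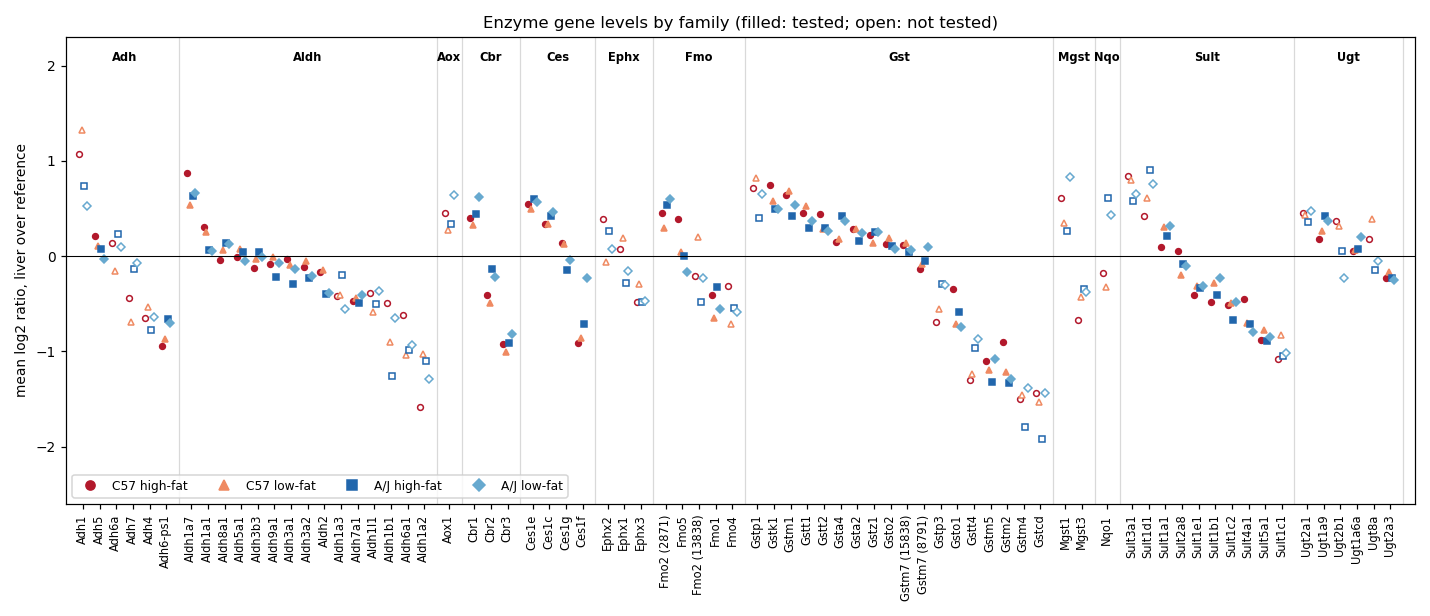
Mean log2 ratio of liver over the reference pool (y axis) for the 74 probes, by family, with 1 symbol for each strain and diet and open symbols for probes not tested. The 4 levels of a probe mostly lie close together compared with the spread between probes, for example near 0.55 for Ces1e and below -0.90 for Gstm2.

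Among probes that were not tested, Adh1, the main liver alcohol dehydrogenase, averaged 0.92 over 277 arrays, while Gstm4 and Gstcd averaged -1.54 and -1.58. The epoxide hydrolases Ephx2, Ephx1 and Ephx3 averaged 0.17, -0.042 and -0.43, Aox1 averaged 0.43, and the microsomal transferases Mgst1 and Mgst3 averaged 0.51 and -0.46. Mgst1 rests on 26.3% of the arrays. A second probe was present for Gstm7 and Fmo2. Those of Gstm7 correlated at 0.58 over 36 groups, while those of Fmo2 correlated at -0.37 over the 28 groups that both covered, so Fmo2 is uncertain.

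The strain comparison asks how C57 and A/J livers differ on the same diet. On the low-fat diet 1 of 45 probes passed the threshold, Ces1f, and it was lower in C57. Across all probes 2.39% passed, 0.864% in that direction. Ces1f encodes a carboxylesterase with triacylglycerol hydrolase activity. Its weekly means ran from -1.68 through a median of -0.89 to -0.24 in C57 on the low-fat diet, and from -1.14 through -0.14 to 0.32 in A/J on the low-fat diet. C57 was lower in 9 of 9 weeks although the ranges overlap. The difference was -0.63 ± 0.13 (SE), a ratio of 0.644, with a limma adjusted p of 0.00381. The gap was widest in week 6, and without that week it was -0.47 with a limma adjusted p of 0.0164. Week 6 was the most thinly measured of the 9 weeks, with a median of 8171.5 probes per array. In A/J on the low-fat diet that median was 6648.5. At week 0, on 2 to 5 arrays each, the means were -1.19 and -0.96 in C57 on the high-fat and low-fat diets and -1.39 and -0.84 in A/J on the same diets.

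The other esterase genes, also on chromosome 8, did not pass on the low-fat diet. Ces1c differed by -0.13 ± 0.06 on the low-fat diet, with an unadjusted p of 0.0473 and a limma adjusted p of 0.422. Ces1g differed by 0.17 ± 0.08, in the opposite direction, with a limma adjusted p of 0.427. On the high-fat diet Ces1f differed by -0.20 ± 0.13 between C57 and A/J, with a limma adjusted p of 0.516.

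On the high-fat diet 3 of 45 probes passed, 1 higher and 2 lower in C57, against 3.94% of all probes, 2.75% higher and 1.19% lower. Gsta4, which conjugates glutathione to aldehydes from lipid peroxidation, had weekly means from -0.34 through 0.22 to 0.61 in C57 and from -0.13 through 0.41 to 0.98 in A/J. It was lower in C57 in 9 of 9 weeks, by -0.28 ± 0.07, a ratio of 0.826, with a limma adjusted p of 0.0178. The ranges overlap because the gene swung with the week in both strains. Without week 5 the limma adjusted p was 0.0687 and without week 9 it was 0.0761. On the low-fat diet its difference was -0.19 ± 0.07, with a limma adjusted p of 0.214.

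Ugt1a9, a glucuronosyltransferase for phenols, ran from 0.022 through 0.15 to 0.36 in C57 on the high-fat diet and from 0.21 through 0.46 to 0.72 in A/J on the high-fat diet. It was lower in C57 in 9 of 9 weeks, by -0.25 ± 0.07, with a limma adjusted p of 0.0488. Ces1g, an esterase that acts on lipid esters, ran from -0.074 through 0.15 to 0.46 in C57 and from -0.59 through -0.01 to 0.13 in A/J. It was higher in C57 in 9 of 9 weeks, by 0.28 ± 0.08, with a limma adjusted p of 0.0495. Both lie at the threshold: leaving out 1 week kept the call for each in 1 of 9 cases.

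**Figure D2:**
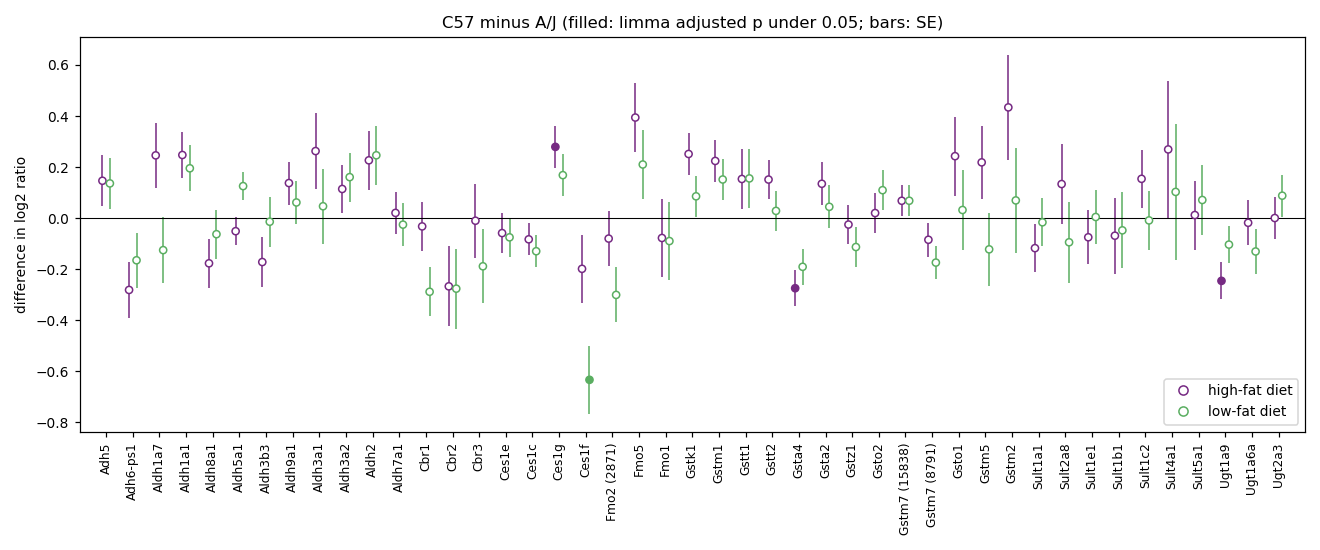
Difference in log2 ratio, C57 minus A/J (y axis, bars SE), for the 45 tested probes on the high-fat and the low-fat diet, with filled points past the threshold. Ces1f on the low-fat diet lies at -0.63, below every other point.

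**Figure D3:**
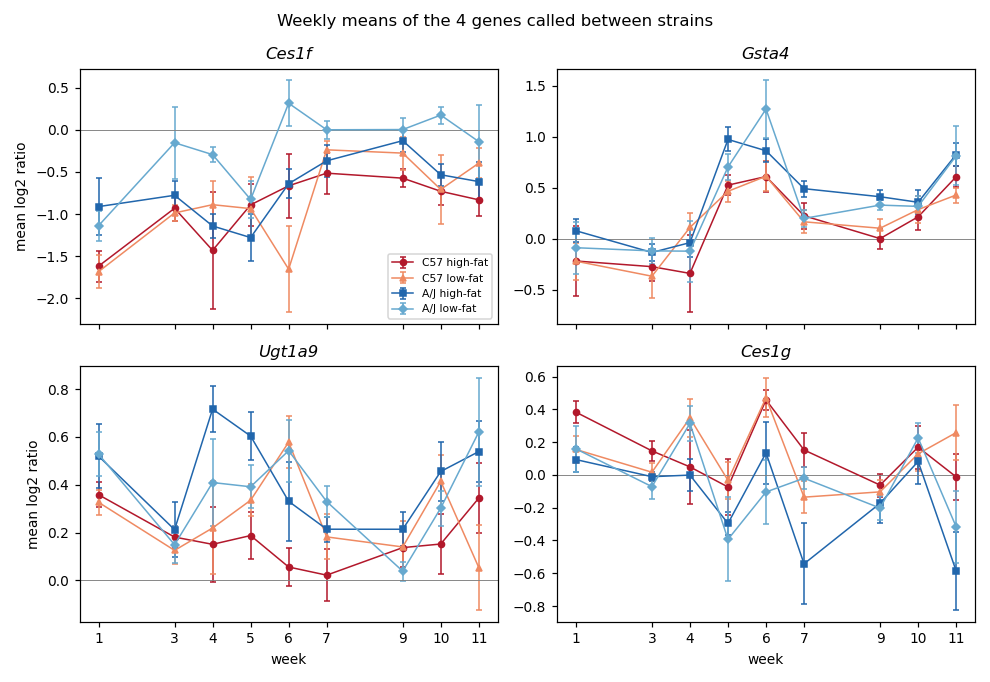
Weekly mean log2 ratio (y axis, bars SE over arrays) against week for Ces1f, Gsta4, Ugt1a9 and Ces1g in the 4 strain and diet levels. For Ces1f, C57 on the low-fat diet lies below A/J on the low-fat diet in all 9 weeks, while Gsta4 moves with the week in all 4 levels.

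The remaining members did not pass between the strains. On the low-fat diet the carbonyl reductase genes Cbr1, Cbr2 and Cbr3 differed by -0.29 ± 0.10, -0.28 ± 0.16 and -0.19 ± 0.15, so that 3 of 3 tested Cbr probes had a lower mean in C57. Over all probes 48.8% had a higher mean in C57 on that diet. Cbr1 ran from -0.10 through 0.39 to 0.75 in C57 and from 0.11 through 0.63 to 0.94 in A/J, with a limma adjusted p of 0.130. Aldh2 and Aldh1a1 differed by 0.25 ± 0.12 and 0.20 ± 0.09 on that diet and by 0.23 ± 0.12 and 0.25 ± 0.09 on the high-fat diet, with the C57 mean higher in each case. Among Gst probes, 9 of 13 had a higher mean in C57 on the low-fat diet and 10 of 13 on the high-fat diet. The shares over all probes were 48.8% and 51.2%. Gstk1 differed by 0.25 ± 0.08 and Gstm1 by 0.22 ± 0.08 on the high-fat diet, with limma adjusted p of 0.0844 and 0.139. The 7 Sult probes had high-fat differences between -0.12 and 0.27, with a median of 0.012 and 4 of 7 positive. Below an unadjusted p of 0.05 lay 10 of 45 members on the low-fat diet, against 11.7% of all probes, and 9 on the high-fat diet, against 15.2%.

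With probes measured on fewer arrays let in, 73 of the 74 were tested among 13890, of which 1.02% passed on the low-fat diet and 1.77% on the high-fat diet. Of the members, 2 passed on each. Adh1 was higher in C57 on the low-fat diet by 0.83 ± 0.17, with a limma adjusted p of 0.00729. Its weekly means ran from 0.51 through 1.09 to 2.53 in C57 and from -1.02 through 0.51 to 1.36 in A/J. Nqo1, the quinone reductase, was lower in C57 on the high-fat diet by -0.76 ± 0.19, with a limma adjusted p of 0.0358. Its weekly means ran from -1.37 through -0.41 to 1.19 in C57 and from -0.18 through 0.44 to 1.51 in A/J. Nqo1 differed by -0.72 on the low-fat diet, with a limma adjusted p of 0.0826. Ces1f and Gsta4 remained past the threshold there.

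Hepatocyte markers moved between the strains too. On the low-fat diet 1 of 8, Trf, was lower in C57, against 0.864% of all probes. On the high-fat diet 2 of 8 markers, Ahsg and Fgb, were higher, against 2.75% of all probes. Another 2 of these markers, Trf and Alb, were lower, against 1.19%. Their summed level, as log2, ran from 3.82 to 4.57 and from 3.76 to 4.46 in C57 on the high-fat and low-fat diets, and from 3.50 to 4.68 and from 3.65 to 4.83 in A/J on the same diets. Their part in the strain differences was not tested. Of 11 tested genes of glutathione supply and redox, 1 passed on the low-fat diet, against 2.39% of all probes. It was the thioredoxin reductase gene Txnrd2, lower in C57 by -0.49 ± 0.13, with a limma adjusted p of 0.0267. On the high-fat diet Txnrd2 was again the 1 of 11 to pass, by -0.51, against 3.94% of all probes. Papss1, which makes the sulfate donor, was higher in C57 on the high-fat diet by 0.33 ± 0.10, with a limma adjusted p of 0.0495. It was 1 of 8 cofactor genes tested. None of 7 other conjugating enzymes and 7 regulators passed on either diet.

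The diet comparison asks how livers on the high-fat diet differ from livers on the low-fat diet within a strain. By limma, 0 of 45 probes passed in C57, where 0.196% of all probes did, and 0 of 45 in A/J, where 0.0262% did. Below an unadjusted p of 0.05 lay 4 of 45 members for C57, against 6.32% of all probes, and 2 for A/J, against 5.42%. The test of whether the strains differ in this diet difference passed for 0 of 45 probes and for 0% of all probes, with 3 members under an unadjusted 0.05, against 2.67% of all probes. The median difference of the members was -0.013 in C57, against -0.00021 over all probes, and -0.019 in A/J, against -0.0070 over all probes.

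In C57 the difference of Fmo5 was among the larger ones, without passing the test. It had weekly means from -0.33 through 0.45 to 1.03 on the high-fat diet and from -0.64 through 0.02 to 0.55 on the low-fat diet. The difference was 0.35 ± 0.13, positive in 8 of 9 weeks, with a limma adjusted p of 0.570. Gsto1, a transferase that reduces dehydroascorbate, differed by 0.36 ± 0.15, positive in 7 of 9 weeks, with a limma adjusted p of 0.695. Aldh1a7 differed by 0.33 ± 0.13, Gstm2 by 0.32 ± 0.20, Sult4a1 by 0.25 ± 0.27 and Sult1a1, the phenol sulfotransferase, by -0.21 ± 0.09. By family, 3 of 3 Fmo and 3 of 3 Cbr probes had a higher mean on the high-fat diet in C57, as did 7 of 13 Gst, 3 of 10 Aldh, 2 of 7 Sult and 0 of 3 Ugt probes. Of all probes 49.8% did. The Fmo counts include Fmo2, which is uncertain as said above. In A/J the counts were 2 of 3 Fmo, 1 of 3 Cbr, 5 of 13 Gst, 4 of 10 Aldh, 2 of 7 Sult and 2 of 3 Ugt probes, against 47.1% of all probes.

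In A/J the largest difference was in Ces1f. Its weekly means ran from -1.28 through -0.64 to -0.13 on the high-fat diet and from -1.14 through -0.14 to 0.32 on the low-fat diet. In 8 of 9 weeks the high-fat mean was the lower one, and the difference was -0.48 ± 0.13, with a limma adjusted p of 0.527. In C57 the Ces1f difference was -0.046, and the strains differed in it by 0.44 ± 0.19, with an unadjusted p of 0.0270 and a limma adjusted p of 1. The 4 levels of Ces1f averaged -0.91 in C57 on the high-fat diet, -0.86 in C57 on the low-fat diet, -0.71 in A/J on the high-fat diet and -0.23 in A/J on the low-fat diet. With single arrays as replicates, Fmo5 in C57 and Ces1f in A/J passed, at limma adjusted p of 0.0251 and 0.0217. In that fit 1.82% of all probes passed in C57 and 0.432% in A/J. It takes arrays as independent, which the labels do not show, so these 2 calls do not replace the weekly test.

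**Figure D4:**
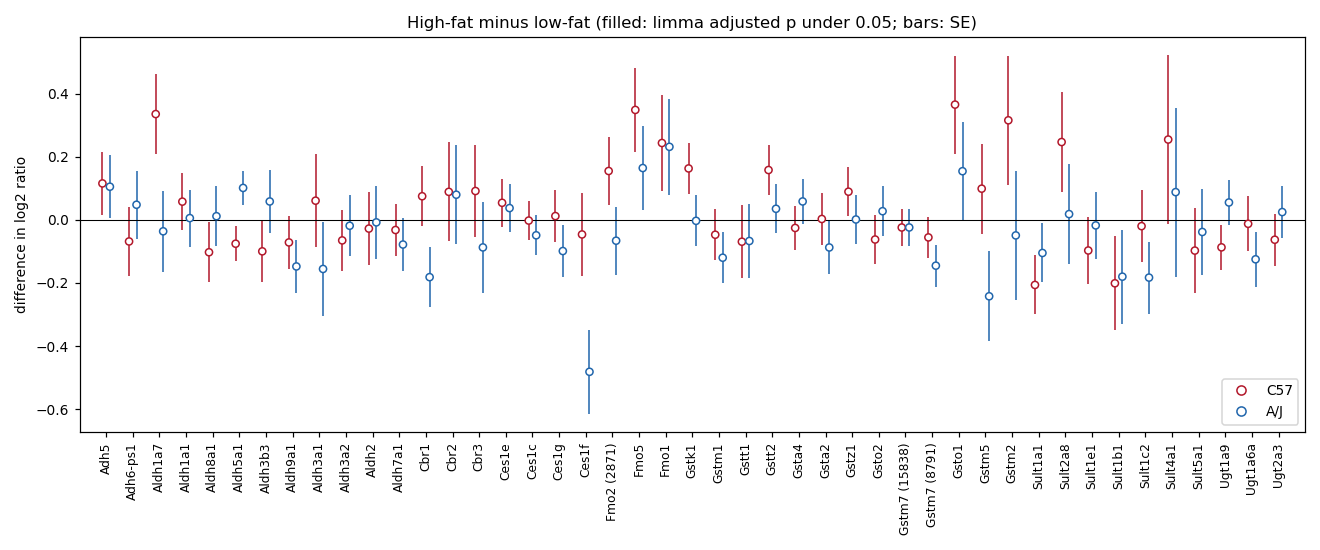
Difference in log2 ratio, high-fat minus low-fat (y axis, bars SE), for the 45 tested probes in each strain. No point is filled, since none passed the threshold, and Ces1f in A/J lies lowest at -0.48.

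Most of the variation of these genes lay between weeks. The week accounted for a median of 69.6% of the variation of the 36 group means of a member, against 60.0% over all probes, and the 4 strain and diet levels for 5.71%, against 4.71%. More than 50% lay between weeks for 37 of 45 members (82.2%) and for 69.7% of all probes. Gsto1 had the highest share, 90.6%, and Aldh3b3 the lowest, followed by Gstm2 with 31.3%. Gsto1 averaged -1.92, -1.62 and -1.84 in weeks 1, 3 and 4, then 0.94 in week 5 and 0.66 in week 6, and fell back to -1.05 in week 11. In all 4 levels it was below 0 in weeks 1, 3 and 4 and above 0 in weeks 5 and 6. Fmo1, a flavin monooxygenase, ran alike, from -1.53 in week 3 to 0.86 in week 5, and Aldh1a7 was at -0.44 in week 1 and 1.73 in week 6. Gstk1 and Gstt1 went the other way and were lowest in week 5, at -0.30 and -0.15. Whether arrays of a week were made together is not stated, so a week of feeding cannot be told apart from a week of processing.

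**Figure D5:**
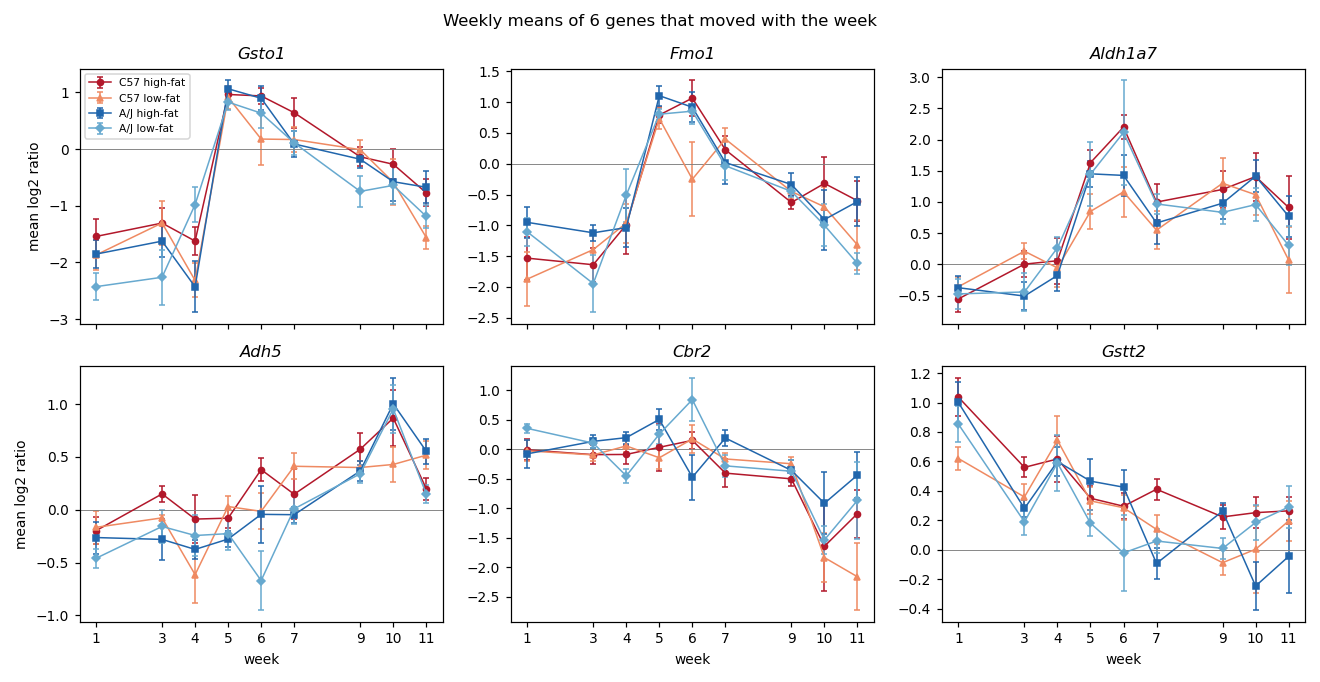
Weekly mean log2 ratio (y axis, bars SE over arrays) against week for Gsto1, Fmo1, Aldh1a7, Adh5, Cbr2 and Gstt2 in the 4 strain and diet levels. The 4 levels of Gsto1 and Fmo1 climb together between weeks 4 and 5, and those of Cbr2 are lowest in weeks 10 and 11.

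Genes of a family were no closer to each other over the weeks than genes of different families, by description. Over the 36 group means, the median correlation was -0.029 for 160 pairs within a family and 0.045 for 830 pairs between families, with the arrays and weeks in common. The closest pairs were Fmo1 and Gsto1 at 0.89, Gsto1 and Gstz1 at 0.89, and Fmo2 and Gsta4 at 0.88.

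Straight lines against week, from week 1 to week 11, passed for 10 of 45 probes in C57, 6 upward and 4 downward, against 14.5% of all probes, 5.82% upward and 8.73% downward. In A/J 12 passed, 9 upward and 3 downward, against 21.5%, 9.89% and 11.6%. These tests treat groups of the same week as independent, which the shared swings show they are not. With 1 point for each week and strain, 0 members passed in C57 and 1, Sult4a1, in A/J, against 1.9% and 0.445% of all probes. Sult4a1 had a slope of 0.18 per week in A/J but was measured on 70.9% of arrays, near the limit for testing. Averaged over the 4 levels, it stood at -1.86, -1.17 and -0.51 in weeks 1, 3 and 4, at 0.21 in week 9 and at -0.61 in week 11. Among the slopes, Cbr2, a carbonyl reductase, had -0.17 ± 0.03 per week in C57 and -0.11 ± 0.03 in A/J. Adh5, which oxidises glutathione adducts of formaldehyde, had 0.08 ± 0.02 in C57 and 0.11 ± 0.02 in A/J. Gstt2, of the theta class, and Aldh2, the mitochondrial acetaldehyde dehydrogenase, had negative slopes in both strains, and Ces1f, Aldh8a1, Gstm1 and Ugt1a6a positive ones. Without the first 3 weeks, a fit chosen after seeing the data, the slope of Aldh2 in A/J was 0.019, that of Ugt1a6a in C57 -0.0045 and that of Gstm1 in A/J 0.0029, and of these 6 genes only Aldh8a1 in A/J still passed, with a limma adjusted p of 0.0291. In that fit Cbr2 had -0.31 in C57 and -0.22 in A/J, and Adh5 had 0.08 in C57, where it no longer passed, and 0.17 in A/J. By limma, the slopes differed between diets for 0 of 45 members in C57 and 0 of 45 in A/J, as for 0% of all probes. In that fit 0 members had an unadjusted p under 0.05, against 0.406% of all probes in C57 and 1.18% in A/J. It keeps the swings shared by both diets in its spread, so it could hardly pass and does not show equal slopes. A line fitted to the weekly diet differences passed for 0% of all probes in C57 and 0.0131% in A/J.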

How the data were processed

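Liver RNA was hybridised against a pooled reference on 2-colour spotted arrays. The authors deposited one ratio per probe and array. The linear scale, the direction (liver over reference) and a mean ratio of 1 per array were read from the deposited values, since background correction, spot filters and normalization are not given in the sources used here. Of the measured values 0.251% are below 0 and 0.271% equal 0, and 42.4% of all cells are empty. Positive ratios were log2 transformed with no pseudocount, other values were treated as not measured, and each array was centred on its median over the probes tested. Intensities were not used here, so precision is given by array number alone. For strain and diet, p-values measure the spread of the group means that remains once the mean of each week is taken out. For slopes, they measure the spread around the lines, which keeps the swings between weeks. Part of either spread may be technical.

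Limma 3.58.1 in R 4.3.3 was fitted as described above and tested on simulated data; Python 3.11.15 and pandas 2.3.3 prepared the tables. Compared were the diets within each strain (high-fat over low-fat), the difference between those, C57 minus A/J on each diet, and slopes against week. Named genes were members past the threshold, the extremes of each family and a fixed set of well-known members. The members and gene lists were chosen with earlier results of these data known. For 73 of 74 probes the gene identifier matched RefSeq. High-fat and low-fat arrays of a strain and week were about as alike with the same sample number in their titles as with other numbers. Over 159 pairs with the same number the median correlation of their deviations was 0.00617, and 44 exceeded 0.1. Over 1541 pairs with other numbers it was -0.00232, and 377 exceeded 0.1. The numbers are offset between the diets in A/J and in late C57 weeks, so pairing by order within a group was not tested. Alternatives changed the centring, normalization, summary, unit of replication, weeks, arrays and filter, one at a time, except that week 8 was added together with the arrays otherwise left out.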

Additional observations from a re-analysis of the deposited data

Results flagged for a closer look

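Each of the 45 tested probes gives 9 weekly means in each of 4 strain and diet levels, 180 series in all, and in 11 of them 1 week lay far from the other 8 by Dixon's test. Chance flags about 1 in 20 such groups. Adh6-ps1 in A/J on the low-fat diet stood at -1.61 in week 1, against -0.92 to -0.38 in the other weeks. Aldh3a1 in C57 on the high-fat diet had 0.76 in week 6, while its other weeks lay between -0.51 and 0.13. Aldh3a2 in A/J on the high-fat diet stood at -0.99 in week 5, against -0.43 to 0.11 in the other weeks. Aldh3b3 in A/J on the low-fat diet had 0.70 in week 6, while its other weeks lay between -0.31 and 0.11. Aldh9a1 in A/J on the high-fat diet stood at -0.95 in week 5, against -0.31 to 0.035 in the other weeks. Cbr1 in C57 on the high-fat diet had 0.99 in week 1, while its other weeks lay between 0.17 and 0.55. Cbr3 in A/J on the high-fat diet stood at -2.16 in week 4, against -1.06 to -0.27 in the other weeks. Gstm1 in A/J on the low-fat diet had -0.22 in week 3, while its other weeks lay between 0.53 and 0.98. 1 of the 2 Gstm7 probes in A/J on the low-fat diet stood at 0.78 in week 1, against -0.31 to 0.13 in the other weeks. Gstt2 in C57 on the high-fat diet had 1.04 in week 1, while its other weeks lay between 0.22 and 0.62. Sult1c2 in A/J on the high-fat diet stood at -1.85 in week 5, against -0.88 to -0.21 in the other weeks. These are log2 ratios of liver over the reference pool. By limma, the test of a difference between the strains in the diet difference passed for 0 of 45 members, with 3 below an unadjusted p of 0.05, against 2.67% of all probes.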

How the results depend on the processing

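For 50 named results, 901 values under alternatives were compared with the main one: 738 kept direction and side of the threshold, 136 lost the call, 21 gained it and 6 reversed. The named results include some that did not pass in the main fit. For those, keeping the side means staying uncalled, so the 738 are not all calls kept. Only results called in the main fit could lose a call. Ces1f on the low-fat diet stayed past the threshold in 18 of 18 alternatives that tested it, between -0.75 and -0.47, and Gsta4 on the high-fat diet in 15 of 18. Ugt1a9 and Ces1g passed in 6 of 19 and 7 of 18. The cause of the changes was not tested.

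Single arrays as replicates gave 1 of 45 members called for diet in C57 (1.82% of all probes) and 1 in A/J (0.432%), 4 between strains on the low-fat diet (7.25%) and 6 on the high-fat diet (11.1%), and the replicate block by sample number gave the same counts, 1, 1, 4 and 6. Between strains on the low-fat diet, the looser filter gave 2 (1.02% of all probes). The stricter filter, which leaves Ces1f untested, gave 0 (3.85%), and leaving out a week gave 1 to 2 (1.55% to 2.38%). On the high-fat diet, no centring gave 1 (3.41%) and group medians 1 (3.43%). All 10 weeks with all arrays gave 0 (16 members tested, 1.92% of all probes), and leaving out a week gave 0 to 3 (3.03% to 3.52%). For slopes in C57 the counts were 6 of 45 without centring (11.2% of all probes) and 3 of 16 with all 10 weeks and all arrays (5.89%). The stricter filter gave 5 of 29 (15.5%), and 1 point per week and strain gave 0 (1.9%). Without the first 3 weeks 5 passed (7.99%), and leaving out a week gave 4 to 13 (6.86% to 19.3%). In A/J they were 3 of 16 with all 10 weeks and all arrays (8.85%) and 7 of 29 with the stricter filter (24.5%). There, 1 point per week and strain gave 1 (0.445%), and leaving out a week gave 4 to 18 (11.7% to 27.5%). The fits with 1 point per week and strain and without the first 3 weeks were chosen after seeing the data. Values that reversed were Ces1c on the low-fat diet (0.045 with all 10 weeks and all arrays) and, without the first 3 weeks, Ugt1a6a in C57 (-0.0045) and Fmo2 (-0.0051), Sult2a8 (-0.038), Aldh2 (0.019) and Fmo5 (-0.0077) in A/J. Rarely measured probes and the unknown signal behind each ratio limit all values.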
